A study of Rattus norvegicus with 18 samples.

Results

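The genes described here are those of the obstructed rat kidney that stood out at 3 days after the ureter was tied. Their transcript level was then higher or lower than the average of the groups at 1 and 7 days. They were chosen by a single contrast, the 3 day group minus the mean of the 1 day and 7 day groups on the log2 scale, in a model of 15 of the 18 RNA sequencing libraries of the series (5 per group). Of 13991 genes tested, 30 passed the test in this contrast (0.214%; edgeR quasi-likelihood test, Benjamini-Hochberg adjusted p under 0.05, here written as called), 20 of them higher at 3 days (0.143%) and 10 lower (0.0715%). Only 16 of the 30 were also called against both other times: 12 were higher than at both (0.0858%, peak genes) and 4 were lower than at both (0.0286%, trough genes). The other 14 were called against 1 day or against 7 days, not both. A missing call does not show that a gene was level. The mean levels of Sparc and AABR07000658.1 rose from 1 to 3 days and on to 7 days. Those of Ccnb1 and Agbl3 rose to 3 days and were not lower at 7 days. The means of these genes thus had no extreme at 3 days. Whether the others of the 14 were transient is not settled.

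All libraries came from renal parenchyma of rats with unilateral ureteral obstruction: under ketamine, the abdomen was opened and the left ureter tied off with silk. The groups differed by how long the ligature was left, 1, 3 or 7 days, and all 3 groups carried the same ligation. No unobstructed kidney enters the contrast: sham kidneys, named in the design, were not analysed here, and the 3 libraries labelled 14 days lie outside the contrast. The sources used here do not give strain, sex or age. They also do not say that each library is its own animal, and the p-values therefore reflect the spread among these libraries, part of which may be technical.

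Ureteral obstruction raises pressure in the tubules and injures their epithelium. The epithelial cells that survive lose part of their transport machinery and their capacity to burn fatty acids, divide, and release chemokines that draw in monocytes. Fibroblasts later lay down collagen. Fatty acid oxidation, on which the proximal tubule depends, is under the control of the nuclear receptor PPAR-alpha and its partners, and many of its genes, like those of the glucocorticoid receptor, are also induced by fasting and stress. Because whole tissue was sequenced, fewer cells of a type and less RNA per cell cannot be told apart in any value that follows.

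Library totals ran from 5488540 to 12049915 counts. Along the first principal component (36.4% of the variance) the 3 groups lay in order of time, with the 3 day libraries between the others. Replicate 5 of day 1 stood apart on the second (17.7%), at −71.1 against −24.6 to 29.3 in the other 14 libraries. Levels are given as FPKM, which scales fragments to transcript length and to the depth of the library, in the order of replicates 1 to 5. Lrp2, the endocytic receptor megalin of the proximal tubule, was at 83.6, 84.2, 87.5, 105 and 42.4 FPKM at 1 day, 127, 133, 163, 119 and 53.5 at 3 days and 87.1, 91.4, 141, 39.9 and 73.8 at 7 days, so kidney epithelium was present in every library. The contrast of Lrp2 was 0.54 ± 0.29 (SE) and it was not called (edgeR, adjusted p = 0.431).

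**Figure D1:**
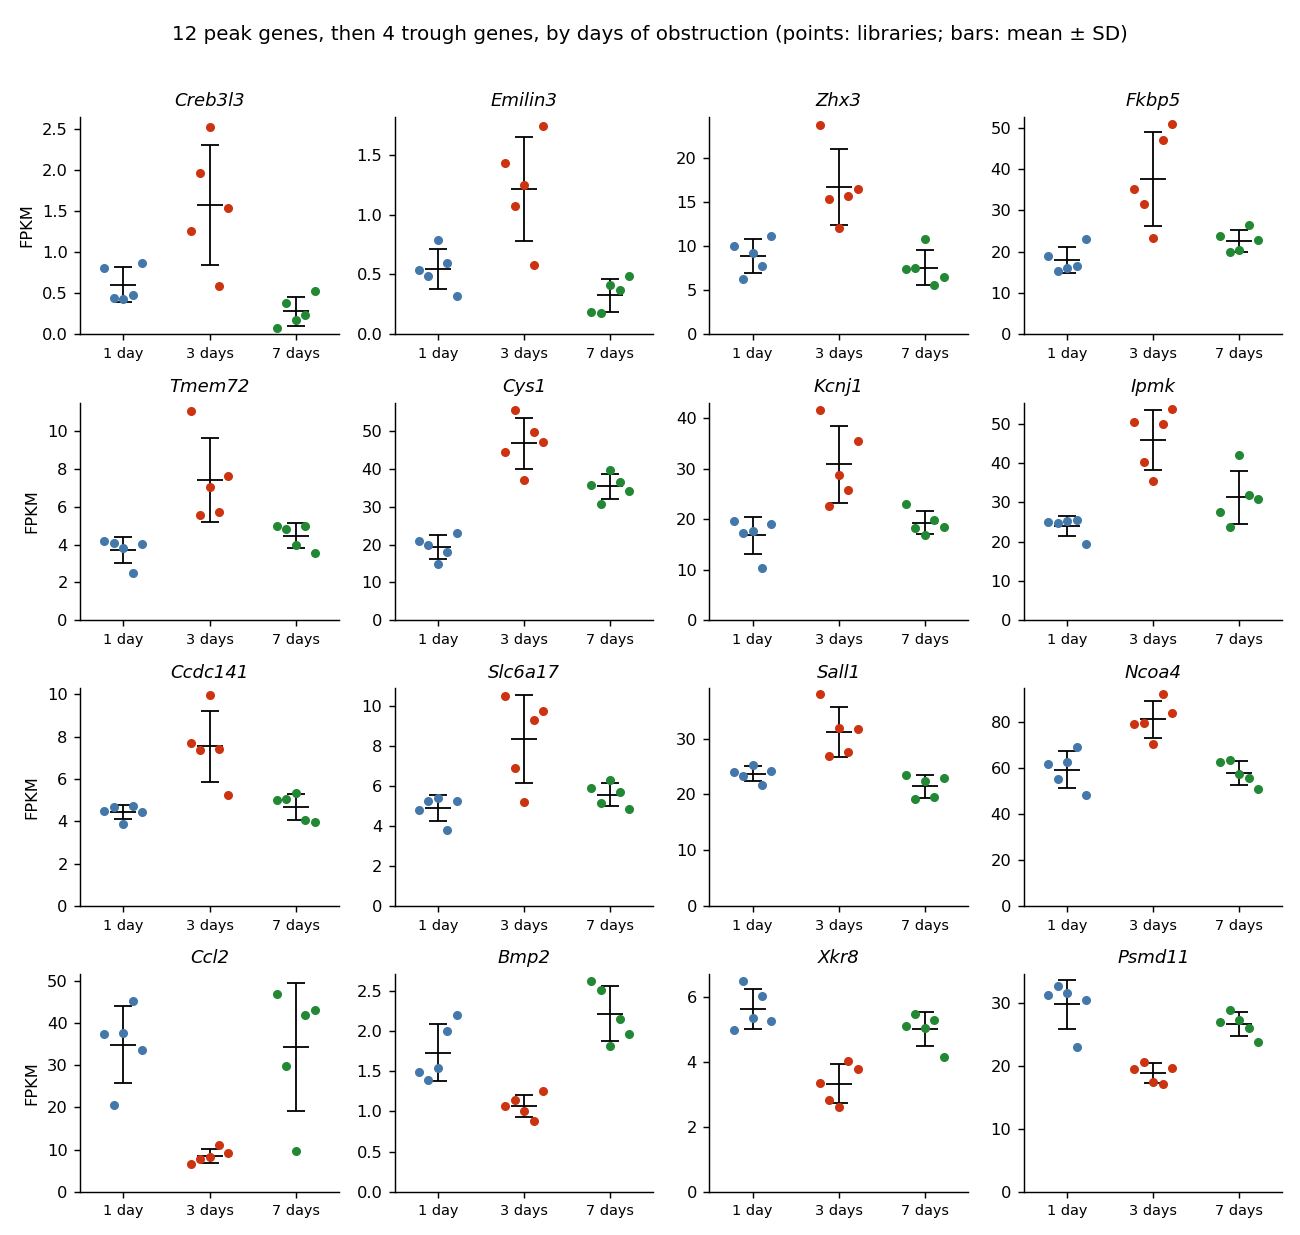
Deposited FPKM of the 12 peak genes and then the 4 trough genes by duration of obstruction. Each point is 1 library (5 per group), the horizontal mark is the group mean and the bar is the SD. Cys1 went from 19.4 to 46.9 and then 35.4 FPKM on average, and Ccl2 from 34.8 to 8.57 and then 34.3.

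The peak gene with the lowest adjusted p was Cys1, which encodes cystin, a protein of the primary cilium membrane that is mutated in a mouse model of polycystic kidney disease. In replicates 1 to 5 of each group it stood at 20.9, 19.8, 15.0, 18.1 and 23.2 FPKM at 1 day, 44.5, 55.6, 37.1, 49.9 and 47.1 at 3 days and 35.9, 30.7, 39.7, 36.5 and 34.3 at 7 days. Every 3 day library lay above every 1 day library, while the lowest of them, replicate 3, fell below the highest 7 day library. The contrast was 0.86 ± 0.10 on the log2 scale (SE; edgeR quasi-likelihood test, Benjamini-Hochberg adjusted p = 0.00424). Against 1 day alone the difference was 1.25 ± 0.12 (adjusted p = 0.000377) and against 7 days 0.47 ± 0.12 (adjusted p = 0.0282). These 2 comparisons share the 3 day libraries and are given side by side, here and for the genes that follow. Cys1 was called in all 15 refits that left out 1 library, and no other of the 30 genes was.

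Of the next 3 peak genes, Kcnj1 was on the list of loop and distal tubule genes and Sall1 on that of nephron identity factors. Kcnj1 encodes ROMK, the potassium channel of the thick ascending limb and collecting duct, and its levels were 19.6, 17.3, 17.7, 10.4 and 19.1 FPKM at 1 day, 41.5, 22.7, 28.8, 25.8 and 35.5 at 3 days and 23.0, 18.2, 17.0, 19.8 and 18.4 at 7 days. Nearly all 3 day libraries were higher than all others: replicate 2 at 3 days was just under replicate 1 at 7 days. The contrast was 0.80 ± 0.15 (edgeR, adjusted p = 0.0351). Sall1, a zinc finger transcription factor needed for the outgrowth of the embryonic ureteric bud and the nephron progenitors, stood at 24.1, 23.3, 25.3, 21.7 and 24.2 FPKM at 1 day, 38.1, 26.8, 31.9, 27.6 and 31.8 at 3 days and 23.5, 19.1, 22.3, 19.5 and 22.9 at 7 days. All 5 of its 3 day libraries exceeded all 10 others. The rise was modest in size, 0.37 ± 0.10 against 1 day and 0.61 ± 0.10 against 7 days (edgeR, adjusted p = 0.0301 and 0.00461; contrast 0.49 ± 0.09, adjusted p = 0.0311). Tmem72, a transmembrane protein gene, was at 4.17, 4.07, 3.82, 2.50 and 4.04 FPKM at 1 day, 11.1, 5.60, 7.04, 5.75 and 7.66 at 3 days and 4.96, 4.85, 4.00, 5.00 and 3.55 at 7 days, again with no overlap between 3 days and the rest (contrast 0.89 ± 0.15, edgeR adjusted p = 0.0311).

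Zhx3, a zinc finger and homeobox repressor of transcription, stood at 10.1, 6.31, 9.22, 7.74 and 11.2 FPKM at 1 day, 23.8, 15.3, 12.1, 15.8 and 16.5 at 3 days and 7.45, 7.52, 10.8, 5.64 and 6.54 at 7 days. Its 5 libraries of 3 days lay above the 10 others. The contrast of Zhx3 was 1.04 ± 0.16 (edgeR, adjusted p = 0.0271), with 0.88 ± 0.19 against 1 day and 1.19 ± 0.19 against 7 days. Ncoa4, the cargo receptor that delivers ferritin to lysosomes and so releases iron, was the most abundant peak gene per transcript length, at 61.8, 55.5, 62.7, 69.2 and 48.2 FPKM at 1 day, 79.5, 79.6, 70.7, 92.6 and 84.2 at 3 days and 62.6, 63.7, 57.5, 55.6 and 51.1 at 7 days. It too did not overlap (contrast 0.49 ± 0.08, edgeR adjusted p = 0.0311). Over all tested genes, 9 had 5 libraries of 3 days above all others (0.0643%), and 4 of these passed the contrast, namely Zhx3, Tmem72, Sall1 and Ncoa4.

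A further 4 peak genes were lower in abundance or overlapped more. Ipmk, a kinase that makes higher inositol phosphates, was at 24.0, 46.0 and 31.3 FPKM on average at 1, 3 and 7 days (contrast 0.76 ± 0.13, edgeR adjusted p = 0.0311). Replicate 3 at 7 days (27.6, 23.9, 42.1, 32.0 and 30.8 FPKM in the 5 libraries) reached into the 3 day range. The coiled-coil gene Ccdc141 was at 4.43, 7.54 and 4.69 FPKM (0.76 ± 0.13, adjusted p = 0.0311). Slc6a17, a carrier of neutral amino acids into vesicles, was at 4.90, 8.33 and 5.57 FPKM (0.69 ± 0.13, adjusted p = 0.0418). Emilin3, a glycoprotein of the extracellular matrix, stayed under 2 FPKM in every library of these groups and had means of 0.546, 1.21 and 0.325 (1.54 ± 0.28, adjusted p = 0.0363). It was the 1 peak gene of the 12 that was no longer one without replicate 5 of day 1.

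Of the other genes called higher, Creb3l3 and Pdk4 were on the list of PPAR-alpha targets, Pex11a on that of fatty acid oxidation and peroxisomes, and Fkbp5, Klf9 and again Pdk4 on that of glucocorticoid targets. Creb3l3 encodes CREB-H, a transcription factor held in the endoplasmic reticulum that acts with PPAR-alpha on lipid genes. It was at 0.805, 0.444, 0.427, 0.474 and 0.863 FPKM at 1 day, 1.25, 1.96, 2.52, 0.586 and 1.54 at 3 days and 0.0775, 0.379, 0.174, 0.233 and 0.529 at 7 days. It was scarce throughout, replicate 4 at 3 days lay within the 1 day range, and the other 4 libraries of 3 days exceeded all 10 of the neighbours. With a contrast of 1.96 ± 0.35 (edgeR, adjusted p = 0.0351), it had the largest positive difference of the 30 genes. Pdk4, the kinase that switches pyruvate dehydrogenase off when fat is burned, was at 12.9, 15.1, 9.75, 7.41 and 28.1 FPKM at 1 day, 25.5, 50.9, 11.5, 18.4 and 35.6 at 3 days and 3.98, 4.17, 2.34, 7.60 and 3.02 at 7 days. All 3 day libraries were above all 7 day libraries, but the 1 day and 3 day ranges overlapped, and replicate 5 of day 1 was above 3 of the 3 day libraries. Pdk4 passed the contrast (1.88 ± 0.34, edgeR adjusted p = 0.0351) and the comparison with 7 days (2.83 ± 0.44, adjusted p = 0.00343), not that with 1 day (0.92 ± 0.40, adjusted p = 0.148), so it is not counted among the peak genes. That call turned on 1 library: without replicate 5 of day 1, Pdk4 passed all 3 comparisons and was a peak gene. Pex11a, which drives the division of peroxisomes, had the same shape, with group means of 30.1, 45.5 and 22.7 FPKM (contrast 0.83 ± 0.16, edgeR adjusted p = 0.0414).

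Fkbp5 encodes a co-chaperone that restrains the glucocorticoid receptor and is itself a standard target of it. It stood at 18.9, 15.4, 16.1, 16.5 and 23.1 FPKM at 1 day, 35.2, 31.6, 23.2, 47.0 and 50.9 at 3 days and 23.8, 19.9, 20.3, 26.6 and 22.8 at 7 days. Replicate 3 was the lowest at 3 days and lay within the 7 day range, and the other 4 exceeded all 10 neighbours. The contrast of Fkbp5 was 0.91 ± 0.14 (edgeR, adjusted p = 0.0271), and it was called in 10 of the 15 refits with 1 library left out, the most after Cys1. Klf9, a Krüppel-like factor induced by glucocorticoids, was at 19.9, 13.8, 18.7, 17.7 and 18.1 FPKM at 1 day, 24.8, 26.7, 22.8, 25.7 and 18.9 at 3 days and 14.8, 13.1, 15.8, 11.1 and 10.2 at 7 days. It was not called between 1 and 3 days (0.41 ± 0.13, adjusted p = 0.0588) and fell after that, with 3 days minus 7 days at 0.94 ± 0.13 (edgeR, adjusted p = 0.00214). Zbtb16, the zinc finger gene PLZF and another steroid target, was higher at 3 days than at 1 day (1.82 ± 0.43, edgeR adjusted p = 0.0177) and than at 7 days (1.80 ± 0.43, adjusted p = 0.025), but missed the threshold in the contrast (1.81 ± 0.35, adjusted p = 0.0528).

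**Figure D2:**
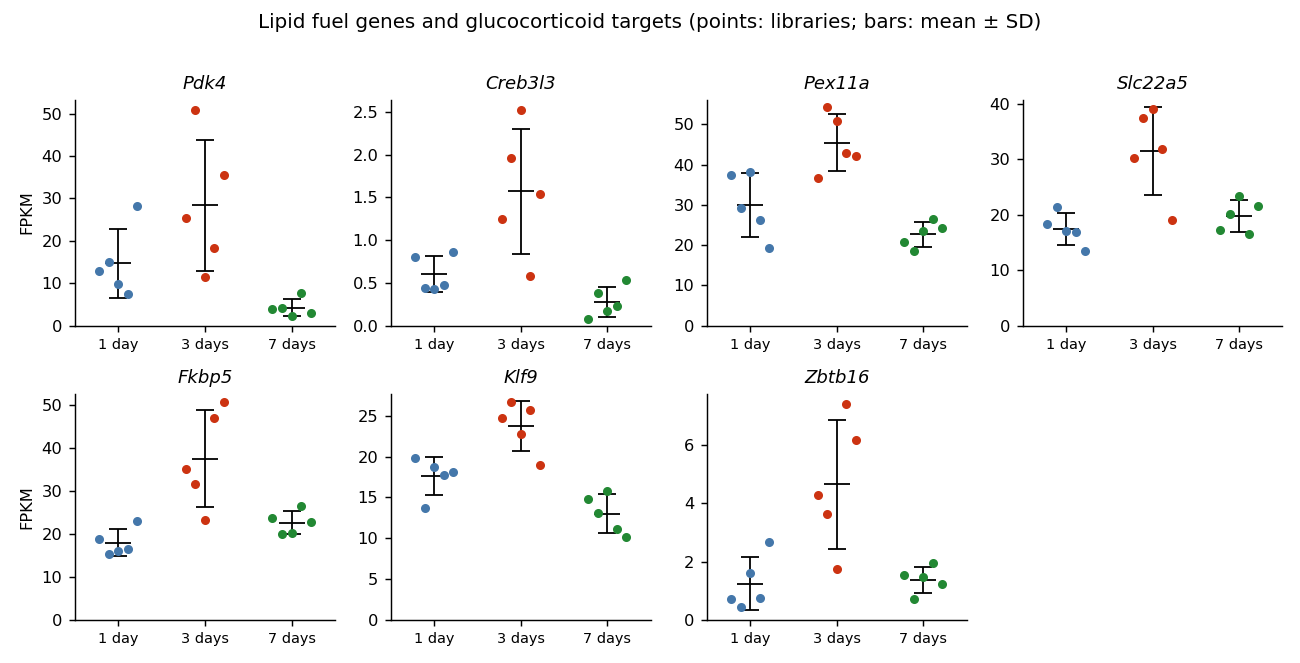
Deposited FPKM of 4 genes of lipid fuel use (Pdk4, Creb3l3, Pex11a, Slc22a5) and 3 glucocorticoid targets (Fkbp5, Klf9, Zbtb16) by duration of obstruction; points are libraries, horizontal marks group means and bars SD, 5 libraries per group. Pdk4 averaged 14.7, 28.4 and 4.22 FPKM, and Fkbp5 18.0, 37.6 and 22.7.

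Promoters are shown for 4 of the called genes on the lipid and glucocorticoid lists, all being known targets of nuclear receptors. They are not all the called genes of these lists. Pex11a is not shown, and its promoter had no CCAAT box (the letters CCAAT on either strand) in the same window. Each line gives the 250 bases before the annotated start, 5′ to 3′ on the strand of the gene, from RefSeq (build GRCr8), with the CCAAT box in capitals (CCAAT, or ATTGG where it lies on the other strand; in Klf9 a pair of matches overlap).
Creb3l3 (chr7:9273070-9273319, plus strand): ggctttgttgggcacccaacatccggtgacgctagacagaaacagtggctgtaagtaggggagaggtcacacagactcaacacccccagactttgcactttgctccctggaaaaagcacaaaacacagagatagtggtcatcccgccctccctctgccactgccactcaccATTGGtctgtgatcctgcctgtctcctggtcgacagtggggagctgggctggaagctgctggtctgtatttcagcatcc
Pdk4 (chr4:34568330-34568579, minus strand): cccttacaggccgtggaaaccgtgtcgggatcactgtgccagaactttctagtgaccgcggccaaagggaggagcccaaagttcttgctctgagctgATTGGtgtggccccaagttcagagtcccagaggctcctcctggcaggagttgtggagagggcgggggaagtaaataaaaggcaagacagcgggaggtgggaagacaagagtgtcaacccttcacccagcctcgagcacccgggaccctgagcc
Fkbp5 (chr20:6543556-6543805, minus strand): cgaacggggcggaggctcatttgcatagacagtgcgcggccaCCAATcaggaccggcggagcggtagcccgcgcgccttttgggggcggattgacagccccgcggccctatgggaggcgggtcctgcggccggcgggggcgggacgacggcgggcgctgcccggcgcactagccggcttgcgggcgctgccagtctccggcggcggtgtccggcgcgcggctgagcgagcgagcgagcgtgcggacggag
Klf9 (chr1:230126396-230126645, plus strand): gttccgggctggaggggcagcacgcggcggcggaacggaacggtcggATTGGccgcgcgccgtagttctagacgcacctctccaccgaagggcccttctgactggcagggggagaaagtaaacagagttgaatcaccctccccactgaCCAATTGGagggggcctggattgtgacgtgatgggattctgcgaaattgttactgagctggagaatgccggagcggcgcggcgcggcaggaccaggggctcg

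A RefSeq promoter was found for 22 of the 30 called genes. The CCAAT box was in 11 of the 22, against 34.0% of all 33469 promoters searched over the same length, and the GC box (GGGCGG) in 10 of 22, against 30.5%. Among peak genes the CCAAT box was in 4 of 11 and the GC box in 5 of 11, and among trough genes each was in 0 of 2. Called genes were counted with a single promoter each, while the share over all took every promoter, whether or not its gene was tested here. On both strands, the full palindrome of the glucocorticoid response element was in 0 of the 22 and in 0.012% of all. The full PPAR direct repeat was in 0 and in 0.0508% of all, the cyclic AMP response element (TGACGTCA) in 0 and 1.59%, and the E-box (CACGTG) in 0 and 5.59%. A match describes letters in this window and is not a binding site, and the absence of these letters says nothing about the factors.

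The lists of PPAR-alpha targets and of fatty acid oxidation place these genes among their relatives. Of 28 tested PPAR-alpha targets, 2 passed the contrast by edgeR, both higher (Creb3l3 and Pdk4), against 0.143% of all tested genes. DESeq2 called 8 higher and 0 lower (1.22% and 1.11% of all genes it tested). At an unadjusted edgeR p under 0.05, 16 were higher and 0 lower (6.97% and 6.6% of all tested genes). Of the 28, 24 had a contrast above 0 (48.3% of all tested genes did), with a median of 0.50 against −0.01 over all tested genes. The median fell to 0.37 without replicate 3 of day 3. Against 7 days, 11 targets were higher at 3 days and 0 lower (3.17% and 4.75% of all tested genes). Against 1 day 4 were higher and 1 lower (5.27% and 5.18% of all tested). The summed level of the list did not peak at 3 days: it was 3211 to 4862 FPKM at 1 day, 3124 to 4021 at 3 days and 1756 to 2194 at 7 days. The lipase gene Mgll (1.13 ± 0.20, adjusted p = 0.00745), Cpt1a, which admits fatty acids to mitochondria (0.97 ± 0.21, adjusted p = 0.0163), and Ppara, the receptor itself (1.09 ± 0.29, adjusted p = 0.037), were higher at 3 than at 7 days (edgeR). Neither Mgll, Cpt1a nor Ppara was called in the contrast (adjusted p = 0.0627, 0.171 and 0.384).

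In the list of fatty acid oxidation and peroxisomes, 48 of 50 tested genes had a contrast above 0 (48.3% of all tested genes did), with a median of 0.30. Pex11a alone was called by edgeR (0.143% of all tested genes were called higher). DESeq2 called 5 higher and 0 lower (1.22% and 1.11% of all genes it tested). Against 7 days 12 members were higher at 3 days (3.17% of all tested genes; 8 members without replicate 4 of day 7). Against 1 day 3 were higher, a share near the 5.27% of all tested genes. Their summed level was 2409 to 2781 FPKM at 1 day, 2549.8 to 3243 at 3 days and 2143 to 2684 at 7 days. The carnitine carrier gene Slc22a5 (OCTN2) was higher than at both times, at 18.4, 21.3, 17.0, 16.9 and 13.4 FPKM at 1 day, 30.2, 37.4, 39.1, 31.9 and 19.0 at 3 days and 17.3, 20.1, 23.4, 16.5 and 21.5 at 7 days. Replicate 5 of day 3 lay within the range of the neighbours and the other 4 above it. Slc22a5 missed the contrast threshold (0.79 ± 0.16, edgeR adjusted p = 0.0617), although it passed against 1 day (0.84 ± 0.19, adjusted p = 0.0148) and 7 days (0.75 ± 0.19, adjusted p = 0.0304).

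Among 23 tested glucocorticoid targets, 3 were called higher in the contrast (Fkbp5, Klf9 and Pdk4) and 0 lower, with a median of 0.26. Over all tested genes these shares were 0.143% and 0.0715%. The summed level of the list overlapped between all groups, at 1432 to 4744 FPKM at 1 day, 1886 to 5101 at 3 days and 1925 to 3009 at 7 days. Against 1 day 5 members were higher (5.27% of all tested genes). Without replicate 5 of day 1 the median contrast was 0.41, and 10 members were higher than at 1 day. Tsc22d3, the steroid-induced leucine zipper GILZ, was at 26.3, 22.1, 25.6, 27.8 and 42.4 FPKM at 1 day, 47.1, 42.3, 38.4, 74.8 and 55.4 at 3 days and 44.0, 42.1, 54.1, 63.3 and 37.9 at 7 days. It rose by 3 days (0.81 ± 0.19, edgeR adjusted p = 0.0174) and was not called between 3 and 7 days (0.16 ± 0.19, adjusted p = 0.636), and it was not called in the contrast (0.48 ± 0.16, adjusted p = 0.202). Time of day at harvest is not given in the labels. Of 21 tested genes of the circadian clock and its output, 0 were called in the contrast by edgeR and 0 by DESeq2 (4 higher and 0 lower at an unadjusted p under 0.05, which 6.97% and 6.6% of all tested genes reached), with a median of 0.04. The clock genes Per1 (0.31 ± 0.20, adjusted p = 0.527) and Dbp (−0.25 ± 0.23, adjusted p = 0.675) were not called in the contrast by edgeR. Against 1 day 2 of the 21 were higher and 1 lower, and against 7 days 1 and 0 (5.27%, 5.18%, 3.17% and 4.75% of all tested genes). Dbp averaged 9.48, 11.7 and 20.9 FPKM at 1, 3 and 7 days. The contrast does not measure a difference between 1 and 7 days, and the part of harvest time was not tested.

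**Figure D3:**
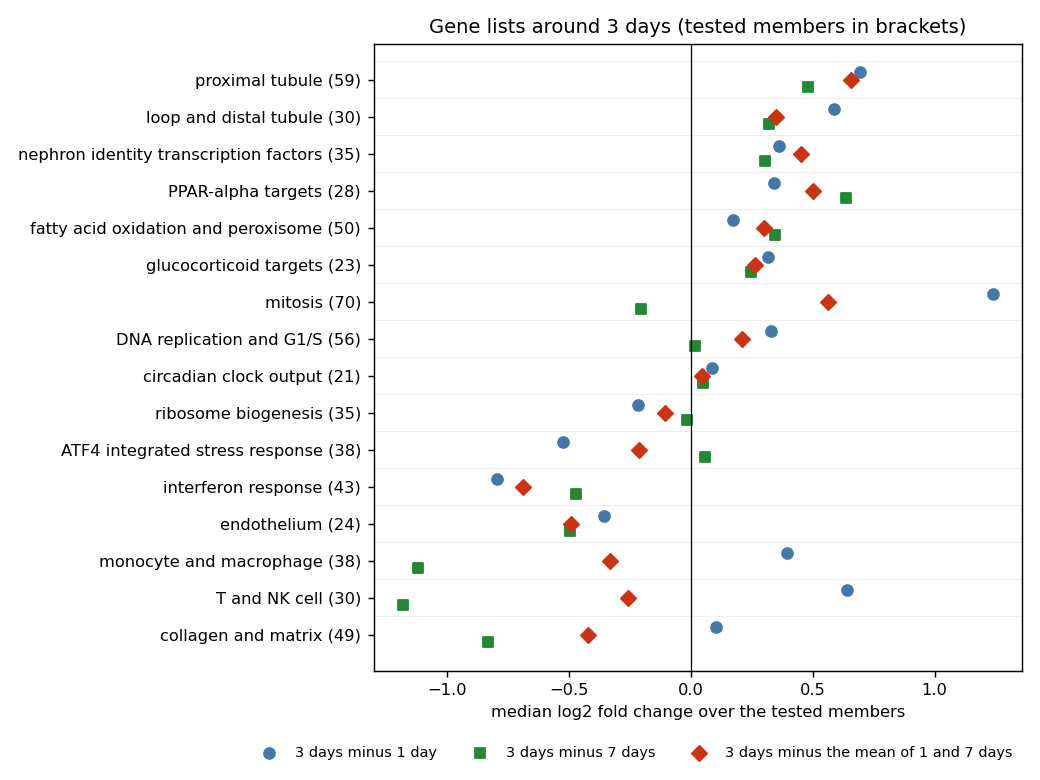
Median log2 fold change over the tested members of 16 gene lists, for 3 days minus 1 day (circles), 3 days minus 7 days (squares) and 3 days minus the mean of both (diamonds); the number of tested members stands in brackets. Mitosis genes lie at 1.24 against 1 day and −0.20 against 7 days, and PPAR-alpha targets lie to the right of 0 for both, at 0.34 and 0.64, although their summed FPKM was not highest at 3 days.

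Trough genes were led by Ccl2, the chemokine MCP-1 that recruits monocytes. It stood at 37.4, 20.5, 37.5, 45.2 and 33.7 FPKM at 1 day, 6.66, 7.81, 8.14, 11.1 and 9.09 at 3 days and 46.8, 29.8, 9.75, 41.9 and 43.0 at 7 days. Every 3 day library was lower than every 1 day library, and replicate 3 of day 7 alone among the later libraries came down to the 3 day range. The contrast was −1.99 ± 0.30 (edgeR, adjusted p = 0.0271), from −2.05 ± 0.33 against 1 day (adjusted p = 0.00242) and −1.92 ± 0.33 against 7 days (adjusted p = 0.00615). Its neighbour in function Ccl7, a chemokine for the same receptor, went the same way, at 3.36, 7.03, 3.65, 5.57 and 9.19 FPKM at 1 day, 1.07, 1.02, 1.79, 1.49 and 2.27 at 3 days and 4.21, 2.91, 1.57, 9.31 and 6.38 at 7 days. Replicate 3 of day 7 was again low. Ccl7 was lower than at both times (−1.93 ± 0.44 and −1.58 ± 0.45, edgeR adjusted p = 0.0159 and 0.0441) without a call in the contrast (−1.75 ± 0.41, adjusted p = 0.0957). In the list of cytokines and chemokines Ccl2 was the single call by edgeR (0.0715% of all tested genes were called lower). DESeq2 called 3 lower and 0 higher (1.11% and 1.22% of all genes it tested). Of 36 tested members 28 had a contrast below 0, and the median was −0.22. The list as a whole was not lowest at 3 days: its median was 0.17 against 1 day and −0.76 against 7 days. Its summed level was 6682 to 8812 FPKM at 1 day, 7082 to 16246 at 3 days and 9742 to 13752 at 7 days.

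Bmp2, a bone morphogenetic protein, was low at all times, at 1.49, 1.39, 1.54, 2.00 and 2.20 FPKM at 1 day, 1.07, 1.13, 0.998, 0.882 and 1.25 at 3 days and 2.61, 2.51, 1.82, 2.15 and 1.96 at 7 days. All 5 of its 3 day libraries were below all others (contrast −0.84 ± 0.15, edgeR adjusted p = 0.0311). Psmd11, a subunit of the proteasome lid, was at 31.3, 32.8, 31.6, 23.0 and 30.6 FPKM at 1 day, 19.5, 20.6, 17.4, 17.1 and 19.7 at 3 days and 27.1, 29.0, 27.3, 26.0 and 23.8 at 7 days. It did not overlap either, and its contrast was −0.55 ± 0.09 (edgeR, adjusted p = 0.0271). The fourth trough gene, Xkr8, encodes a scramblase that exposes phosphatidylserine on dying cells, and stood at 4.99, 6.51, 5.37, 6.05 and 5.27 FPKM at 1 day, 3.35, 2.84, 2.62, 4.04 and 3.78 at 3 days and 5.12, 5.49, 5.05, 5.30 and 4.16 at 7 days. Replicate 4 of day 3 was close to replicate 5 of day 7 and there was no overlap (contrast −0.66 ± 0.11, edgeR adjusted p = 0.0311). In all, 21 tested genes had every 3 day library below the 10 others (0.15%), and 4 of them passed the contrast: Bmp2, Psmd11, Xkr8 and Nrbp1.

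**Figure D4:**
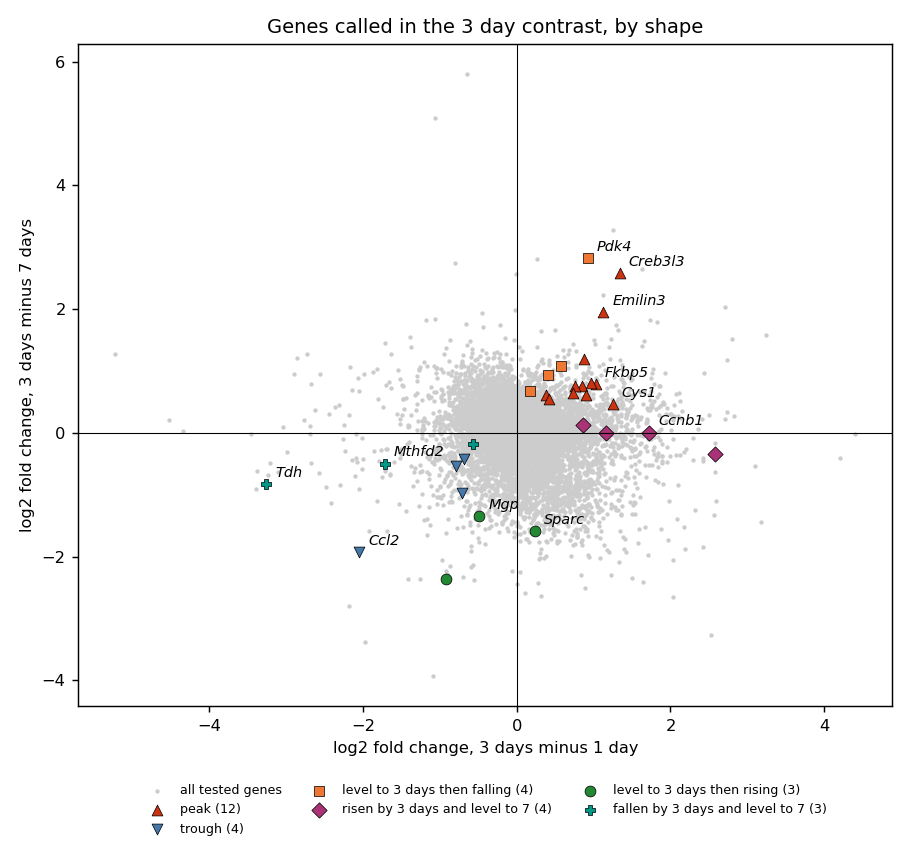
Log2 fold change of 3 days against 1 day (horizontal) and against 7 days (vertical) for all 13991 tested genes (grey) and the 30 genes called in the contrast, with a colour and marker for each shape. The axes share the 3 day libraries. Peak genes lie in the upper right and trough genes in the lower left. The 14 other genes were called against 1 day or against 7 days, not both. Some of them lie in the same quadrants, such as Pdk4 (0.92 and 2.83) and Mgp (−0.49 and −1.35).

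The 14 called genes outside these groups, of which 13 are named here, fell into 4 shapes, in which level means that the test made no call. Pdk4, Pex11a, Klf9 and Epb4.1, the membrane skeleton protein 4.1 (0.43 ± 0.08), were level from 1 to 3 days by the test and lower at 7 days. Risen by 3 days and level after it were Ccnb1, Incenp, Agbl3 and the unnamed gene AABR07000658.1. Ccnb1, cyclin B1 of mitotic entry, was at 3.49, 2.55, 1.93, 2.95 and 2.31 FPKM at 1 day, 8.73, 6.86, 9.84, 8.51 and 10.0 at 3 days and 12.5, 9.43, 9.38, 7.72 and 7.07 at 7 days. All libraries of 3 and 7 days were above those of 1 day, and 3 days was not called against 7 (0.00 ± 0.18, edgeR adjusted p = 0.991; 1.72 ± 0.19 against 1 day, adjusted p = 0.000419). Incenp, of the chromosomal passenger complex, (0.49 ± 0.08, adjusted p = 0.0311) and Agbl3, a carboxypeptidase that trims glutamate from tubulin (0.58 ± 0.10, adjusted p = 0.035), followed the same course. AABR07000658.1 averaged 1.28, 7.94 and 10.5 FPKM.

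The mitosis list had this stepped shape. Of 70 tested mitosis genes 51 were higher at 3 days than at 1 day and 0 lower (5.27% and 5.18% of all tested genes), and 0 were called in either direction against 7 days by edgeR or by DESeq2 (0 higher and 5 lower at an unadjusted p under 0.05, against 13.4% and 13.7% of all tested genes; DESeq2 called 6.83% of all higher and 7.84% lower). The median was 1.24 against 1 day, −0.20 against 7 days and 0.56 in the contrast, where 67 members were above 0, 43 were higher at an unadjusted p under 0.05 (6.97% of all tested genes) and Ccnb1 was the 1 call by edgeR. DESeq2 called 11 higher in the contrast (1.22% of all genes it tested). Of 56 tested genes of DNA replication and the G1/S step, 7 were higher than at 1 day and 0 lower, with medians of 0.33 against 1 day and 0.02 against 7 days. Mki67, the proliferation antigen, (0.57 ± 0.19, adjusted p = 0.205) and the mitotic kinase gene Plk1 (0.76 ± 0.18, adjusted p = 0.102) were not called. No mitosis gene was a peak gene.

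Sparc and Mgp did the reverse: they were level to 3 days and higher at 7. Sparc, a matricellular protein that binds collagen, was at 182, 139, 139, 142 and 193 FPKM at 1 day, 195, 188, 202, 209.9 and 152 at 3 days and 502, 607, 545, 649 and 696 at 7 days. All 7 day libraries exceeded all others by more than 2-fold, and Sparc was not called between 1 and 3 days (0.24 ± 0.12, edgeR adjusted p = 0.233; contrast −0.68 ± 0.11, adjusted p = 0.0311). Mgp, the matrix Gla protein that inhibits calcification, was at 864, 608, 875, 923 and 679 FPKM at 1 day, 491, 588, 543, 695 and 537 at 3 days and 1285, 1488, 1033, 1684 and 2149 at 7 days. Its 3 day libraries lay mostly under those of 1 day, without a call (−0.49 ± 0.17, adjusted p = 0.0837), and far under those of 7 days (−1.35 ± 0.18, edgeR adjusted p = 0.00138). Of 49 tested collagen and matrix genes, 2 were called lower by edgeR (Sparc and Mgp), against 0.0715% of all tested genes. DESeq2 called 10 lower and 0 higher in the contrast (1.11% and 1.22% of all genes it tested). At an unadjusted edgeR p under 0.05, 20 were lower and 0 higher (6.6% and 6.97% of all tested genes). The median over the 49 was −0.42. Against 7 days 24 were lower at 3 days and 1 higher, and against 1 day 2 and 1 (over all tested genes 4.75%, 3.17%, 5.18% and 5.27%). Col1a1, a chain of type I collagen, was not called in the contrast (−0.64 ± 0.16, adjusted p = 0.121). Fn1, fibronectin, was lower at 3 days than at both times, at 90.9, 58.6, 84.9, 101 and 105 FPKM at 1 day, 70.6, 52.8, 35.8, 49.6 and 33.5 at 3 days and 76.2, 126, 69.1, 69.1 and 117 at 7 days (−0.89 ± 0.22 and −0.86 ± 0.22, edgeR adjusted p = 0.0227 and 0.0327). The libraries overlapped and the contrast of Fn1 was not called (−0.87 ± 0.20, adjusted p = 0.0957).

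Fallen by 3 days and level after it were Tdh, Mthfd2 and Nrbp1. Mthfd2, the mitochondrial folate enzyme driven by the stress factor ATF4, was at 10.5, 9.95, 10.4, 7.07 and 13.6 FPKM at 1 day, 3.38, 2.74, 2.29, 4.31 and 3.25 at 3 days and 3.47, 4.38, 4.22, 7.54 and 4.03 at 7 days. All 3 day libraries were below all of 1 day, and replicate 4 of day 7 was the highest of the later ones. The contrast was −1.11 ± 0.19 (edgeR, adjusted p = 0.0311), with −1.72 ± 0.22 against 1 day and −0.50 ± 0.22 against 7 days (adjusted p = 0.000686 and 0.154). Tdh, the threonine dehydrogenase gene, averaged 2.31, 0.243 and 0.434 FPKM and Nrbp1, a pseudokinase gene, 56.3, 38.5 and 46.0. Of 38 tested genes of the ATF4 response, 23 were lower at 3 days than at 1 day and 0 higher (5.18% and 5.27% of all tested genes). Against 7 days 0 were lower and 1 higher by edgeR (4.75% and 3.17% of all tested genes). DESeq2 called 0 lower and 4 higher than at 7 days (7.84% and 6.83% of all genes it tested). At an unadjusted edgeR p under 0.05, 1 was lower and 8 higher than at 7 days (13.7% and 13.4% of all tested genes). Mthfd2 was the list's 1 call in the contrast by edgeR (0.0715% of all tested genes were called lower). DESeq2 called 11 lower and 0 higher (1.11% and 1.22% of all genes it tested). At an unadjusted edgeR p under 0.05, 18 were lower and 0 higher (6.6% and 6.97% of all tested genes). Chac1, a glutathione-degrading enzyme and ATF4 target, was not called by edgeR (−1.58 ± 0.32, adjusted p = 0.0627).

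A further 21 genes were called beyond both neighbours without passing the contrast itself. Higher at 3 days than at 1 and at 7 days were 21 genes in all (0.15%), of which 9 lacked the contrast call: Zbtb16, Tp73, Slc22a5, Atp1b1, Ptprd, Ptgr2, Adgra3, Clpx and Usp24. Atp1b1, the beta subunit of the sodium pump and an abundant transcript of the distal tubule, was at 668, 716, 639, 571 and 889.6 FPKM at 1 day, 1200.2, 993, 929.6, 1055 and 1386 at 3 days and 913, 687, 934, 809 and 690.1 at 7 days. Its 3 day libraries were above those of 1 day, and replicate 3 at 3 days was just under the highest 7 day library (contrast 0.59 ± 0.12, edgeR adjusted p = 0.0617). Contrasts of the 9 ran from 0.30 in Usp24 to 1.81 in Zbtb16. Lower than at both times were 16 genes (0.114%), of which 12 lacked the contrast call: Ccl7, MGC105649, Tubb3, Ptgis, Fn1, Irf5, Pdlim1, Pdlim7, Plekho1, Dcakd, Tubb5 and Plscr3. Pdlim1, an actin-associated PDZ and LIM protein, was at 24.9, 24.4, 22.3, 21.4 and 38.7 FPKM at 1 day, 15.7, 17.6, 15.9, 19.4 and 17.8 at 3 days and 24.5, 27.9, 24.3, 30.0 and 31.3 at 7 days, and no 3 day library reached the others (contrast −0.62 ± 0.12, edgeR adjusted p = 0.0609). Pdlim7, of the same family, did not overlap either (−0.58 ± 0.12, adjusted p = 0.073). Irf5, an interferon regulatory factor of macrophages (−0.62 ± 0.14, adjusted p = 0.0901), and Ptgis, prostacyclin synthase (adjusted p = 0.0961), were not called in the contrast. The tubulin genes Tubb3 (−1.03 ± 0.25) and Tubb5 (−0.42 ± 0.10) have near-identical paralogues that may share reads, so their levels are uncertain.

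Marker lists of cell types moved with the contrast in part. Of 59 tested proximal tubule genes 54 had a contrast above 0, with a median of 0.66. 0 were called by edgeR and 6, all higher, by DESeq2, while 21 were higher and 0 lower at an unadjusted p under 0.05. Over all tested genes DESeq2 called 1.22% higher, and 6.97% were higher and 6.6% lower at that unadjusted p. Their summed level was 2633 to 6215 FPKM at 1 day, 4968 to 13662 at 3 days and 3530.5 to 9961 at 7 days, so the ranges overlapped. Hnf4a, the master transcription factor of the proximal tubule, was at 37.1, 61.0, 45.5, 54.6 and 15.3 FPKM at 1 day, 96.6, 95.2, 117, 107 and 61.0 at 3 days and 57.4, 60.4, 104, 34.5 and 67.0 at 7 days and was not called (0.88 ± 0.28, edgeR adjusted p = 0.19), with replicate 5 lowest both at 1 and at 3 days. Acsm5, a medium-chain acyl-CoA synthetase of the same list, was higher than at 1 day (2.83 ± 0.40, edgeR adjusted p = 0.00131) and was not called against 7 days (0.27 ± 0.36, adjusted p = 0.669).

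Among loop and distal tubule genes, edgeR called Kcnj1 alone in the contrast (0.143% of all tested genes were called higher). DESeq2 called 4 higher and 0 lower (1.22% and 1.11% of all genes it tested). Of 30 tested genes of the list 28 had a contrast above 0, and the median was 0.35. Their summed level was 3833 to 4590.4 FPKM at 1 day, 4506 to 5694 at 3 days and 3349.6 to 4269.6 at 7 days, and Pvalb of this list was at 0 in all of these libraries. Egf, the epidermal growth factor made by the distal tubule, was higher than at 1 day (1.76 ± 0.39, edgeR adjusted p = 0.0131) without a call in the contrast (1.36 ± 0.32, adjusted p = 0.0957). Among transcription factors of nephron identity 31 of 35 were above 0, with a median of 0.45 and Sall1 as the single call by edgeR. DESeq2 called 3 of them higher and 0 lower. The tubule lists thus had medians above 0 together with Kcnj1, Sall1 and the fuel genes, and their part in those results was not tested.

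On the other side, 21 of 24 tested endothelial genes had a contrast below 0, with a median of −0.49 that shrank to −0.21 without replicate 5 of day 1. 0 were called by edgeR and 1, lower, by DESeq2 (7 lower and 0 higher at an unadjusted p under 0.05, against 6.6% and 6.97% of all tested genes; DESeq2 called 1.11% of all lower). The summed endothelial level was 233 to 685 FPKM at 1 day, 227 to 339 at 3 days and 317 to 516 at 7 days. Kdr, the VEGF receptor, was lower at 3 than at 7 days (−0.84 ± 0.20, edgeR adjusted p = 0.0259). Of 38 tested monocyte and macrophage genes 34 were below 0 (median −0.33, or −0.15 without replicate 5 of day 1 and replicate 4 of day 7). The list median was 0.39 against 1 day and −1.12 against 7 days. Of its members 2 were higher and 3 lower than at 1 day (5.27% and 5.18% of all tested genes). Against 7 days 15 were lower (4.75% of all tested genes). Without replicate 4 of day 7, 4 were lower than at 7 days. The summed macrophage level was 2485 to 2972 FPKM at 1 day, 2666 to 3357 at 3 days and 2916 to 9160.4 at 7 days, with Retnla at 0. Cd68, a lysosomal protein of macrophages, was not called in the contrast (−0.76 ± 0.29, edgeR adjusted p = 0.27). Fibroblast genes had a median of −0.21 over 22 tested members (summed level 303 to 623, 549 to 679 and 972 to 1381 FPKM; Ogn, Mfap4 and Aspn at 0), and T and NK cell genes −0.26 over 30 (summed 43.0 to 66.3, 46.0 to 126 and 121 to 448). Without replicate 4 of day 7 the median of the T and NK cell genes was −0.05. The part of these cell types in the trough results was not tested.

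Interferon response genes had the lowest median of the lists with more than 5 tested members. It was −0.69 over 43 tested members, 40 of them below 0. In the contrast 0 were called by edgeR and 1, lower, by DESeq2, with 22 lower at an unadjusted p under 0.05 (6.6% of all tested genes). Against 1 day 10 were lower and 0 higher (5.18% and 5.27% of all tested genes). Against 7 days 2 were lower and 1 higher, the former a share near the 4.75% of all tested genes. Without replicate 5 of day 1, 9 were lower than at 7 days and the median contrast was −0.46. Usp18, a protease that removes ISG15, was at 2.79, 1.76, 2.66, 1.77 and 22.9 FPKM at 1 day, 1.94, 0.828, 1.27, 1.05 and 0.809 at 3 days and 1.96, 3.58, 1.15, 3.24 and 4.07 at 7 days, and the antiviral gene Rsad2 at 18.7, 8.02, 13.2, 24.9 and 71.7 FPKM at 1 day, 3.33, 5.38, 1.32, 3.54 and 3.12 at 3 days and 2.36, 4.73, 2.16, 4.03 and 3.05 at 7 days. Replicate 5 of day 1 was far above every other library for both. Usp18 (−1.77 ± 0.63, edgeR adjusted p = 0.236) and Rsad2 (−1.47 ± 0.45, adjusted p = 0.175) were not called.

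That library also stood apart for collecting duct and urothelium genes. Aqp2, the water channel of the collecting duct, was at 371 FPKM in replicate 5 of day 1 and at 14.4 to 57.9 in the other 14 libraries. The summed level of the urothelium list was 440.5 FPKM in it and 4.53 to 134.7 in the others, the highest of these being replicate 1 of day 3, and Krt13 of that list was at 0. Among injury genes, Havcr1, the shed receptor KIM-1, was at 542, 559, 188, 536 and 539.9 FPKM in the 3 day libraries and Lcn2, the lipocalin NGAL, at 344, 322, 175, 395 and 1674. In each of them a single library stood apart, replicate 3 for Havcr1 and replicate 5 for Lcn2. Neither Havcr1 (−0.21 ± 0.22, edgeR adjusted p = 0.7) nor Lcn2 (1.23 ± 0.45, adjusted p = 0.245) was called in the contrast.

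The number of genes called was sensitive to single libraries and to the test. Without replicate 3 of day 1, replicate 1 of day 3 or replicate 2 of day 7, 1 gene was called higher and 0 lower by edgeR, although 864, 789 and 891 genes were then lower at an unadjusted p under 0.05. Without replicate 4 or 5 of day 3 it was 5 or 4 higher and 0 lower (822 and 907 lower at an unadjusted p under 0.05). Without replicate 2 of day 3 the counts were 6 and 2, and without replicate 3 of day 3, 9 and 5. Leaving out replicate 2 or 4 of day 1 gave 9 and 6 or 8 and 6, and replicate 1, 4 or 5 of day 7 gave 8 and 6, 6 and 4, or 11 and 9. The counts grew to 44 and 27 without replicate 5 of day 1 and to 55 and 29 without replicate 3 of day 7, the library in which Ccl2 and Ccl7 were low. With replicate 5 of day 1 and replicate 4 of day 7 both left out they were 48 and 26, with 26 peak and 8 trough genes. DESeq2 called 170 genes higher and 155 lower, among them all 30, while log2(FPKM+1) values tested with limma gave 15 and 20. Each of the 30 kept its sign in all 29 alternative fits. The 30 were chosen by this contrast, and the fits reuse the same libraries. A kept sign was therefore nearly certain and is no separate support.

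**Figure D5:**
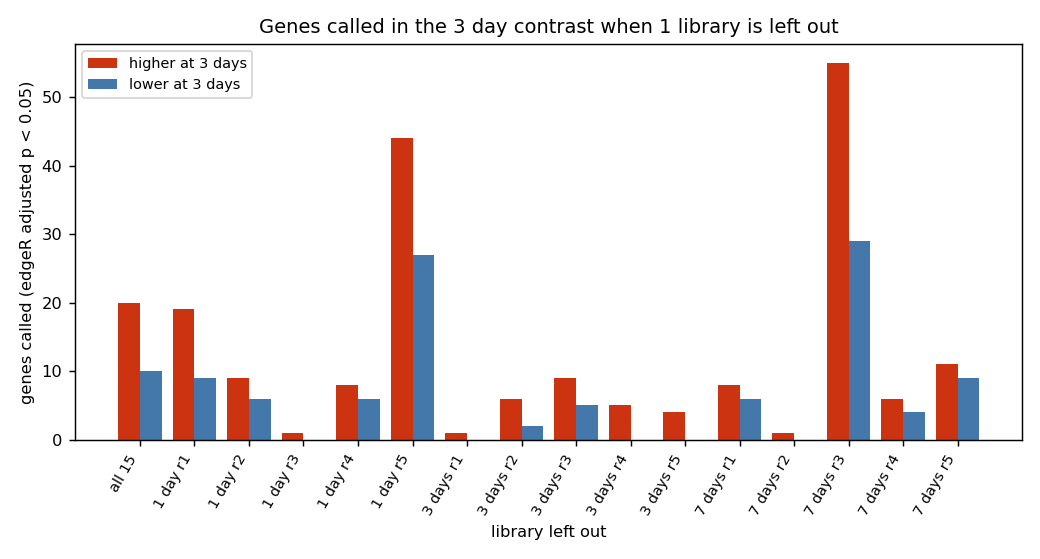
Number of genes called higher (red) and lower (blue) at 3 days than the mean of 1 and 7 days, with all 15 libraries and with each library left out in turn (edgeR, adjusted p under 0.05). Counts ran from 1 to 55 higher and from 0 to 29 lower.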

How the data were processed

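Poly(A) RNA of renal parenchyma was sequenced, and 15 libraries of 1, 3 and 7 days (5 each) were used, grouped by their labels alone. The submitters' processing notes name fastp 0.19.7 and HISAT2 2.0.4. The sources used here do not give the counting tool, its use of strand or the genome build, so overlapping and antisense genes cannot be told apart. The authors deposited read counts and, beside them, FPKM for each gene in each library, per the file headers. The deposited FPKM equal the count per length and per column total up to a constant (9465 genes checked, largest ratio of implied lengths 1.00002). Every library carries the same batch label.

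Of 30957 genes, 13991 passed filterByExpr (min.count 10, min.total.count 15). Counts were scaled by TMM factors and tested by the quasi-likelihood test of edgeR 4.0.16 (R 4.3.3), with 1 coefficient per group and Benjamini-Hochberg adjustment at 0.05 over all tested genes; SE are the log2 difference over the square root of F. A peak or trough gene passed the contrast and both pairwise comparisons in the same direction.

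Gene lists (1648 symbols, of which 1547 matched by symbol and 34 by an older symbol) are described by counts and medians. The members and lists were chosen with earlier results of these data known. The rule for named genes took called genes without overlap and at least 5 FPKM, up to 5 members per list with the smallest p, and fixed markers. The other called genes, the 21 genes beyond both neighbours, Mgll, Plk1 and Chac1 were named after their values were seen, and 1 called gene is not reported here. Promoters came from RefSeq (GRCr8). Alternatives used DESeq2 1.42.0, limma 3.58.1 on log2(FPKM+1) and log2(FPKM+0.1), other scalings and filters, the replicate number as a block, and each library left out. Same-numbered libraries of different groups had a median correlation of 0.065, against 0.005 for other pairs. They were not treated as pairs, and the block is reported with the alternatives.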

Additional observations from a re-analysis of the deposited data

Results flagged for a closer look

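In each group of 5 libraries the gap between the most extreme library and its nearest neighbour was divided by the range of the group, and ratios past the Dixon critical value for 5 libraries are given here. Chance gives about 1 in 20 groups, and 27 of 243 groups tested (11.1%) passed. Replicate 5 of day 1 was the highest of its group in 14 of them and the lowest in 1.

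At 1 day, replicate 5 was the highest library for Aqp2 (ratio 0.924, 371 FPKM), Usp18 (0.951, 22.9 FPKM), Rsad2 (0.734), Cd68 (0.787), Cpt1a (0.764), Dbp (0.767), Tsc22d3 (0.719), Pdlim1 (0.796), Ptgis (0.799) and Agbl3 (0.774), and the lowest for Ipmk (0.847, 19.5 FPKM). It was also the highest for the summed level of urothelium (0.972), principal and intercalated cell (0.839), endothelium (0.83) and adipocyte (0.783) lists. Without this library 44 genes were called higher and 27 lower in the contrast, as given in the report.

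Replicate 4 of day 1, the library with the fewest counts of its group, was the lowest for the peak genes Tmem72 (0.791, 2.50 FPKM) and Kcnj1 (0.75, 10.4 FPKM) and for the trough gene Psmd11 (0.772, 23.0 FPKM). At 3 days, replicate 3 was the lowest for Havcr1 (0.939, 188 FPKM) and Pdlim7 (0.713) and the highest for Ptgr2 (0.776). Replicate 5 of that group was the highest for Lcn2 (0.853, 1674 FPKM), Irf5 (0.736) and MGC105649 (0.788), and replicate 1 for the summed urothelium list (0.814). At 7 days, replicate 4 was the highest for Egf (0.85, 9.13 FPKM) and Mthfd2 (0.777). The part of these libraries in the results for single genes was not tested beyond the refits that left each of them out.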

How the results depend on the processing

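All 30 called genes kept their direction in 29 alternative fits, which was nearly certain because the fits reuse the libraries that chose them. Of 870 gene and fit pairs, 379 lost the threshold. Genes higher and lower in the contrast, then peak and trough genes, numbered 20, 10, 12 and 4. DESeq2 gave 170, 155, 37 and 32, limma-voom with array weights 78, 51, 38 and 18, and limma on log2(FPKM+0.1) 11 higher and 7 peak genes; on log2(FPKM+1) it gave 20 lower. Weighting 1 and 7 days for interpolation in time gave 100 higher, 68 lower and 10 trough genes. Counts of 0 in all 4 came with all 18 libraries in the edgeR fit (458 higher and 480 lower at an unadjusted p under 0.05) and with a fold threshold of 1.5 (109 and 64). With 1 library left out the counts ran from 1 to 55, from 0 to 29, from 1 to 29 and from 0 to 15. Without replicate 5 of day 1 and replicate 4 of day 7 together, chosen after seeing the data, they were 48, 26, 26 and 8.

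Replicate numbers were not taken to pair the libraries. Correlations of same-numbered libraries ran from −0.22 to 0.17 (median 0.065, 7 of 15 over 0.1). Those of other libraries from different groups ran from −0.40 to 0.37 (median 0.005, 16 of 60 over 0.1). In all, 2 libraries correlated best with their own number. With the replicate block, the counts were 3 higher (Cys1, Fkbp5, Sall1), 1 lower (Psmd11), 2 peak and 1 trough. RLE and upper-quartile factors, robust dispersion, no filter on low counts and a filter of 1 CPM in 5 libraries gave 16 to 22 higher and 8 to 10 lower. The cause of these shifts was not tested. The counts rest on libraries of 5488540 reads upward, and genes under about 1 FPKM, such as Emilin3, have few reads behind them.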

Other observations

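Genes of protein synthesis had small negative contrasts. Of 35 tested ribosome biogenesis genes 33 had a contrast below 0, with a median of −0.11. They included Npm1, the nucleolar chaperone nucleophosmin, at 194, 199, 196, 209 and 177 FPKM at 1 day, 154, 159, 133, 174 and 165 at 3 days and 213, 179, 193, 203 and 196 at 7 days. Every 3 day library of Npm1 was below all 10 others, yet the contrast was not called (−0.30 ± 0.07, edgeR adjusted p = 0.0956). Without replicate 5 of day 1 Npm1 was a trough gene. Against 1 day 11 of the list were lower and 1 higher, and against 7 days 2 and 0 (5.18%, 5.27%, 4.75% and 3.17% of all tested genes). Of 62 tested ribosomal protein genes 59 were below 0 (median −0.12), but their medians were 0.03 against 1 day and −0.26 against 7 days. None was called against 1 day by edgeR (0 higher and 0 lower at an unadjusted p under 0.05; DESeq2 0 and 0), and 8 were lower than at 7 days, or 1 without replicate 4 of day 7. Their summed level was 19256 to 22040.0 FPKM at 1 day, 17997 to 22953 at 3 days and 23358 to 26802 at 7 days. Processed copies of these genes may share their reads.

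Genes of oxidative phosphorylation went the other way by a like small amount, with 43 of 50 above 0 and a median of 0.10. For antigen presentation by MHC class II the median was 0.82 against 1 day and −1.40 against 7 days over 14 tested genes. Of these, 5 were lower than at 7 days (4.75% of all tested genes). Without replicate 4 of day 7 the latter median was −0.90 and 1 gene was lower. The 3 libraries labelled 14 days were not part of the contrast and differed widely among themselves for genes of the report. Ccl2 was at 85.6, 1.28 and 125 FPKM in replicates 1 to 3, Cys1 at 13.5, 34.8 and 18.4 and Kcnj1 at 14.2, 48.9 and 0.872.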
